A study of Mus musculus with 4 samples.

Results

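The genes of the Myc-Max-Mxd network, which encode the transcription factors that pair with Max and Max itself, were examined as targets of their own proteins in mouse embryonic stem cells (ESCs). The members were fixed by name as Myc, Mycn, Mycl1, Max, Mga, Mnt, Mxd1, Mxi1, Mxd3 and Mxd4, and all 10 were found among the 37310 annotated genes (22380 protein-coding). Proteins of this network carry a basic helix-loop-helix zipper domain. Myc, N-Myc and L-Myc bind the E-Box sequence CACGTG as heterodimers with Max and are known mainly as activators of growth and cell cycle genes. The Mxd proteins, Mxi1 and Mnt compete for Max at the same sequence and recruit Sin3 corepressors, and Mga, which also has a T-box domain, joins Max in a variant Polycomb repressive complex that keeps germline genes silent in ESCs. An anti-Max ChIP can therefore recover sites of any of these dimers, whereas the Bio-Myc ChIP recovers the tagged Myc.

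The study comprised 4 ChIP-Seq samples of E14 mouse ESCs grown with LIF, and the peak lists of the Bio-Myc and Max samples were analysed. Bio-Myc was purified on streptavidin beads from a stable E14 clone that expresses Myc with an N-terminal biotin tag from a constitutive promoter on an integrated vector, in cells that carry the BirA biotin ligase per the methods. The Max ChIP and its IgG control used parental wild-type E14 cells, and the mock streptavidin ChIP used parental wild-type cells per the labels and BirA cells without a tagged protein per the methods. The controls entered only the peak calling. There was 1 library per ChIP and 1 Bio-Myc clone, so no value has an error between cultures and no difference between the lists could be tested. A peak list holds no expression, so the ESC label could not be checked against marker genes.

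The Bio-Myc list held 3962 peaks and the Max list 11570. Each peak has a score from the authors, the negative log10 of its MACS p-value times 10, and both lists stop at a score of 80 (a p-value of 1e-08). Depth is unknown because the lists hold no reads, so a missing peak means that none passed that limit. Scores were ranked within a list, and ratios of the Max to the Bio-Myc score only beside those of genes with both peaks. A peak was assigned to the promoter of a gene where it came within 1 kb of any annotated transcription start site (TSS) in mm9, and 5 kb served as the wider window.

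Of the 10 members, 6 had a Bio-Myc peak within 1 kb of a TSS (Mycn, Max, Mga, Mnt, Mxi1 and Mxd3), beside 14.6% of all protein-coding genes. A Max peak was found at 7 (Mycl1, Max, Mga, Mnt, Mxi1, Mxd3 and Mxd4), beside 34.8%. Both were found at 5 members (Max, Mga, Mnt, Mxi1 and Mxd3), beside 12.7%. Mycl1 and Mxd4 had a Max peak only (22.1% of protein-coding genes), Mycn a Bio-Myc peak only (1.98%), and Myc and Mxd1 neither (63.2%). Within 5 kb the Bio-Myc count stayed at 6 (16.6% of protein-coding genes) and the Max count rose to 8 (38.6%) with a weak peak in Mycn. In that window 6 members had both (14.5%), 2 Max only (24.2%), none Bio-Myc only (2.16%) and 2 neither (59.2%). Among the genes of the DNA-binding antagonists, Mnt, Mxi1 and Mxd3 thus had peaks of both lists, Mxd4 a Max peak only and Mxd1 neither. The genes of the common partner Max and of Mga had both, and none of the Myc family genes did within 1 kb. The members had from 1 (Mxd1) to 12 (Mga) annotated TSSs, beside a median of 2 over protein-coding genes. A gene with more TSSs has more places where a peak can be counted. With the outermost TSS only, the counts were 5 for Bio-Myc, 5 for Max and 4 for both. The background shares at that setting are not given. With 10 genes chosen by name and 1 library per ChIP, these counts are a description beside the background shares. The genes were chosen with earlier results of these data known.

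**Figure D1:**
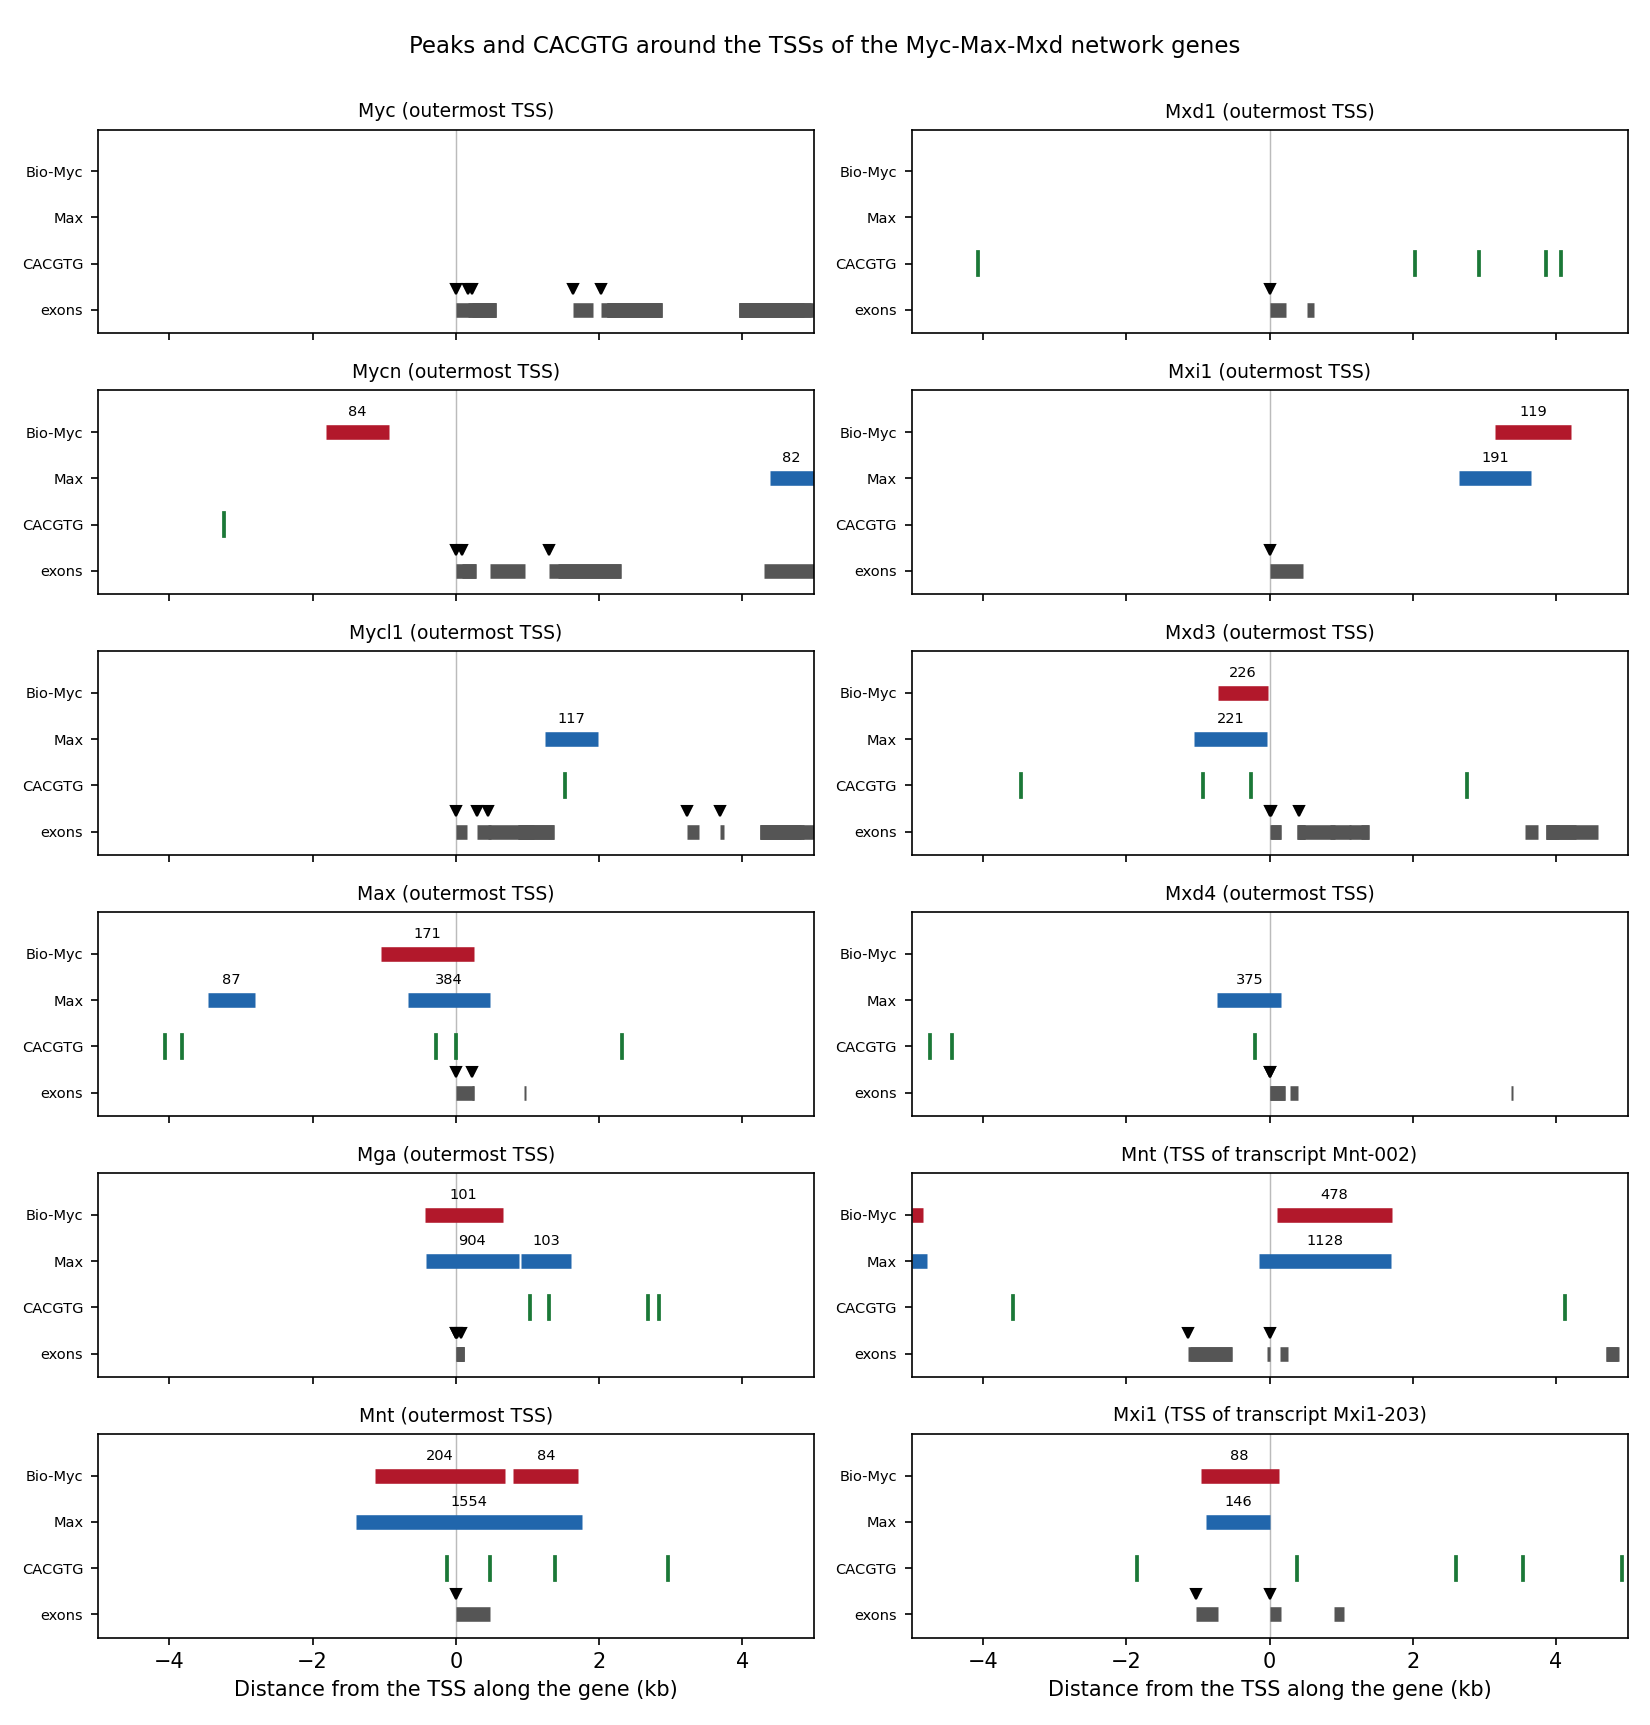
Peaks of Bio-Myc (red) and Max (blue) with their scores, CACGTG sites (green) and exons (grey) within 5 kb of a TSS of each network gene; the x axis is the distance from that TSS along the gene in kb, and triangles mark annotated TSSs. Peaks of both lists lie over or beside a TSS of Max, Mga, Mnt, Mxd3 and Mxi1, while no peak lies within 5 kb of Myc or Mxd1.

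The CACGTG sites within 1 kb of a member's TSS, or under a peak within 5 kb of one, are printed below. Max dimers bind this sequence, but whether one contacts a printed site was not tested, and several peaks held none. There were 13 such sites at 7 members, of which 11 lay under a Max peak, 6 under peaks of both lists and 2 (both at Mxi1) under neither. The sites 1081 bp (Mycl1), 1219 bp (Mga) and 1382 bp (Mnt) from the nearest TSS were listed only because a peak covered them. Sites as far away without a peak were left out. These counts therefore do not measure how often a CACGTG lies under a peak. Each line gives 30 bases of the plus strand of mm9 with the E-Box in capitals.
Max, over the TSS (chr12:78063221-78063250): tcggccccctaaCACGTGaccgggctcacc
Max, upstream (chr12:78063496-78063525): gggaagacaggaCACGTGgagggagctggg
Mnt, upstream (chr11:74644291-74644320): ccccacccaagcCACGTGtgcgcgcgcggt
Mnt, coding exon (chr11:74644886-74644915): aacaacagagagCACGTGgtgagcggcccg
Mnt, intron (chr11:74645792-74645821): cccgcccccgacCACGTGcacgggggacac
Mxd3, upstream (chr13:55431358-55431387): cggcctgggctaCACGTGcgcgcgggacgc
Mxd3, farther upstream (chr13:55432038-55432067): ggaaaacacagtCACGTGccaatcaggccc
Mxd4, upstream (chr5:34530561-34530590): gcttagcaacagCACGTGgtggcccagccc
Mga, intron (chr2:119723989-119724018): cgccgaagccgaCACGTGgatcttgagaag
Mga, intron, farther in (chr2:119724248-119724277): tccgcctggctgCACGTGatccttgggact
Mycl1, intron (chr4:122674411-122674440): gtgtctgtctggCACGTGggtgtgttggta
Mxi1, not under a peak (chr19:53403072-53403101): ttcagtgcctggCACGTGtctggccttacc
Mxi1, not under a peak (chr19:53405303-53405332): ttgtttttaaggCACGTGaaatcttttgga

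By gene, a CACGTG lay under a Bio-Myc promoter peak in 3 of the 6 members with such a peak (Max, Mnt and Mxd3), beside 49.7% of all protein-coding genes with a Bio-Myc peak within 1 kb. It lay under a Max promoter peak in 6 of 7 (all but Mxi1), beside 38.6% of all protein-coding genes with a Max peak there. The sequence occurred within 1 kb of the outermost TSS in 4 of the 10 members and in 27.8% of all 22380 protein-coding promoters of the same length. Those 4 were Max, Mnt, Mxd3 and Mxd4, and each had a Max peak there. The promoters of the network were rich in CpG, with a median observed-to-expected ratio of 0.704 beside 0.468 over all protein-coding genes. Among protein-coding genes, the median was 0.678 with both peaks, 0.623 with Max only, 0.62 with Bio-Myc only and 0.285 with neither. The network median was thus near that of genes with both peaks. The ratio was also high at the members without a peak, with 0.694 at Myc and 0.712 at Mxd1.

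Mnt, which encodes a widely expressed Max partner that antagonises Myc, had the highest promoter scores of the network in both lists. The gene (ENSMUSG00000000282.6) spans 74644422 to 74659227 of chromosome 11, plus strand. A Max peak scoring 1554 (74643026 to 74646190), the 50th of the 11570 Max peaks, covered its outermost TSS. That peak was 3165 bp wide, wider than 99.8% of the list. Under it lay a Bio-Myc peak over the TSS (score 204, 74643299 to 74645105) and a weaker one in the first intron (score 84.5, 74645227 to 74646131). The Max peak held 3 CACGTG sites, and 1.8% of Max promoter peaks held 3 or more. A wide peak can hold more sites, and per kb it held 0.948 CACGTG, beside 0.496 over Max promoter peaks. The sites lay 114 bp upstream, 476 bp downstream and 1382 bp downstream of the TSS, in the promoter, the first coding exon and the intron.

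A further pair of peaks at Mnt lay inside the gene, near the start of the annotated transcript Mnt-002 at 74650970. The Bio-Myc peak (74651079 to 74652677) scored 478, the 152nd of the 3962 peaks in its list, and began 109 bp downstream of that start. The Max peak (74650827 to 74652661) covered the start and scored 1128, the 109th in its list. Bio-Myc was thus higher at the internal site than at the outermost TSS, whereas Max was higher at the outermost TSS. Neither internal peak held a CACGTG, and both held 3 matches to CACGCG, a sequence that differs from the E-Box at 1 position. The 200 bases at the middle of the part shared by these peaks, which lie in an intron and hold neither sequence, are shown because they are the centre of the strongest Bio-Myc peak of the network.
Mnt, internal site, plus strand of mm9 (chr11:74651771-74651970): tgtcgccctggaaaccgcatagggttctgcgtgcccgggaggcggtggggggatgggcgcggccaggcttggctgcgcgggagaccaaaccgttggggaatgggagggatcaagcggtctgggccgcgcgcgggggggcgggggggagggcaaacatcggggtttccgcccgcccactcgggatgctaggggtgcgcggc

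Among the 3275 protein-coding genes with a Bio-Myc promoter peak, Mnt ranked 174th by its strongest peak, and among the 7788 with a Max promoter peak it ranked 34th. With 3 Bio-Myc peaks within 1 kb of a TSS, Mnt was among the 3 of these 3275 genes with as many (0.0916%). By the strongest promoter scores in both lists, the genes nearest to Mnt were Cdk6, Eif4ebp1 and Agpat5, at distances of 0.0398, 0.06 and 0.0765 on the log10 scale among the 2831 other genes with both peaks.

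The Max gene, which encodes the common partner of the network, had overlapping peaks of both lists over its start. It (ENSMUSG00000059436.5) spans 78038256 to 78063235 of chromosome 12, minus strand. Bio-Myc scored 171 (78062981 to 78064282) and Max scored 384 (78062759 to 78063902), and the peaks shared 922 bp. Both covered the 2 annotated TSSs and held the same 2 CACGTG sites, and 14.4% of Bio-Myc and 8.5% of Max promoter peaks held 2 or more. One E-Box spanned the outermost TSS itself, in the 5′ UTR exon, and was 95 bp off the Max centre and 396 bp off the Bio-Myc centre. The other lay 273 bp upstream, 121 bp from the Bio-Myc centre and 180 bp from the Max centre. A weaker Max peak with a score of 86.7 and no CACGTG lay 2809 bp upstream of the TSS, without a Bio-Myc peak.

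By the strongest scores of each gene, Mga stood out among the members by a high Max score beside a low Bio-Myc score. The gene (ENSMUSG00000033943.9, chromosome 2, 119722964 to 119795317, plus strand) carried a Max peak scoring 904 (119722542 to 119723845), the 227th of its list. The overlapping Bio-Myc peak (119722528 to 119723619) scored 101, above only 27.6% of its list, although both peaks covered the same 4 TSSs and shared 1078 bp. The ratio of the Max to the Bio-Myc score was 8.92 at Mga, higher than at 99.0% of the 2832 protein-coding genes with both peaks, whose median ratio was 1.65. A ratio between libraries of unknown depth has a meaning only beside the other genes, and it was not tested. Neither of these peaks held a CACGTG. The E-Boxes of Mga printed above lay in the first intron, under a Max peak scoring 103 (119723880 to 119724580) that no Bio-Myc peak overlapped. Another 2 CACGTG sites, 2686 and 2832 bp downstream of the outermost TSS, lay under no peak.

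A second site near Mga, singled out after its values were seen, carried one of the highest scores of the Max list. It lay between genes, 23.2 kb upstream of the outermost TSS of Mga, where a Max peak (119697835 to 119699759) scored 2668, the 19th of the 11570. The Bio-Myc peak inside it (119698098 to 119699593) scored 371, the 287th of its list. Each held 3 CACGTG sites and 6 matches to CACGCG. No annotated TSS lay within 4.38 kb of the Max peak, the nearest being that of the pseudogene Gm13998. The observed-to-expected CpG ratio of the Max peak was 0.885, beside a median of 0.678 over the 2-kb promoters of protein-coding genes with both peaks. Which gene this site acts on cannot be read from the lists. The 200 bases at its middle are shown with CACGTG and CACGCG (here read on the other strand) in capitals.
Site upstream of Mga, plus strand of mm9 (chr2:119698746-119698945): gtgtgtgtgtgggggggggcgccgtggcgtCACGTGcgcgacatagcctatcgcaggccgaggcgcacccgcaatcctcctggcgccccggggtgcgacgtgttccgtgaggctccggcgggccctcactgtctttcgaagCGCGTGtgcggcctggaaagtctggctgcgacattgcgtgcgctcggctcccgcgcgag

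**Figure D2:**
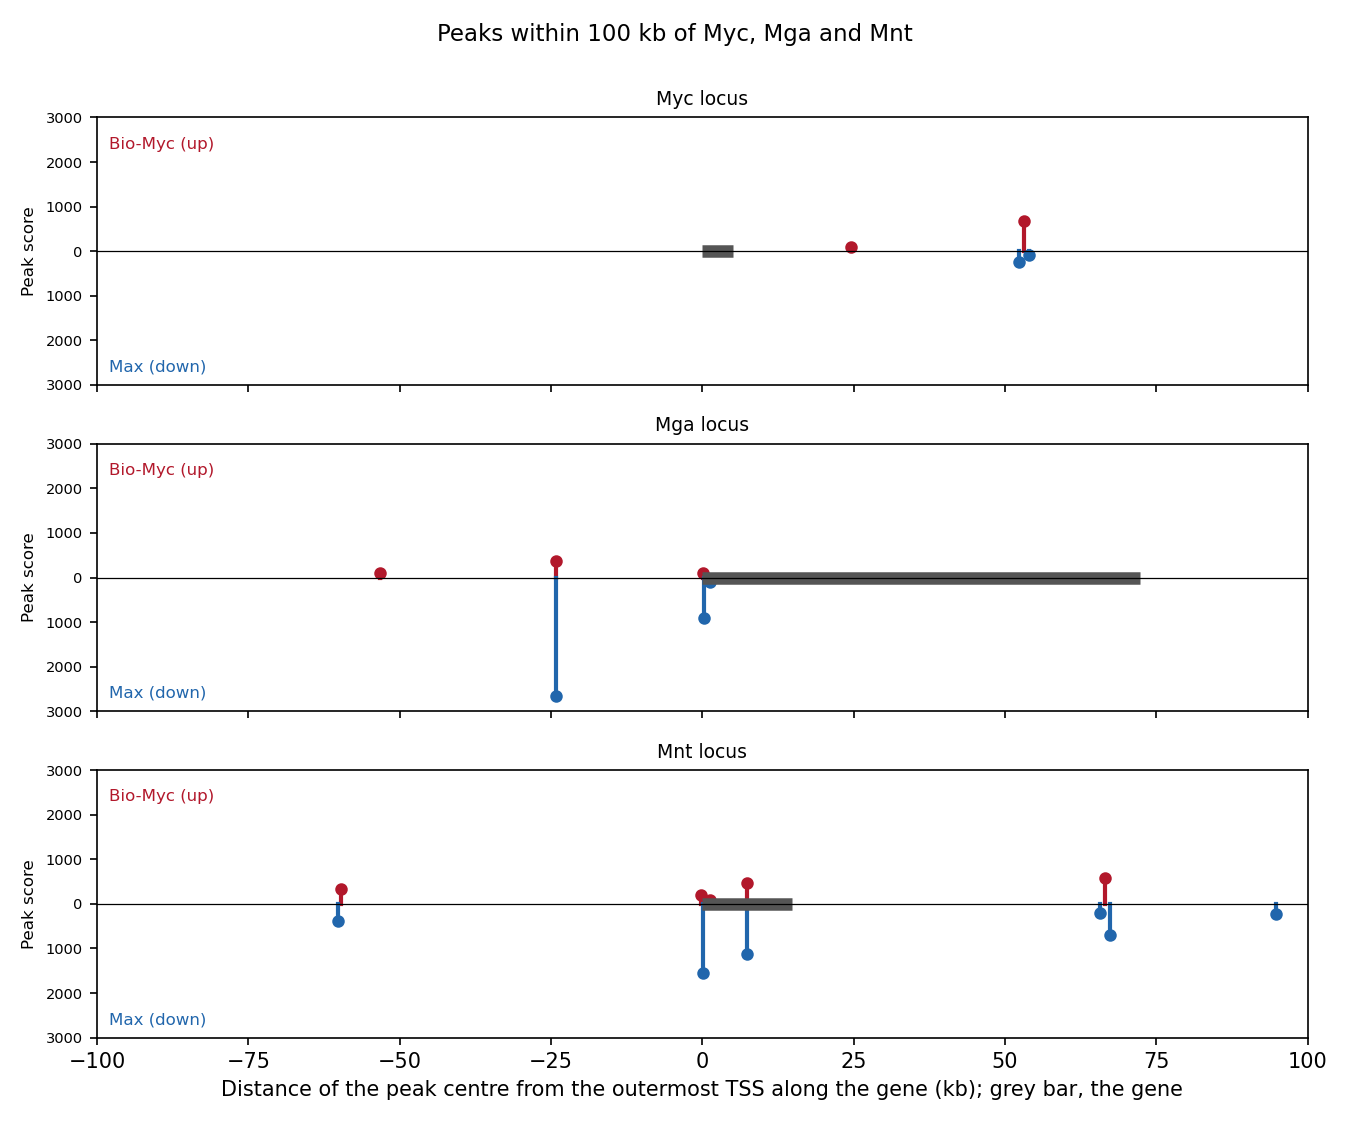
Scores (y axis, negative log10 of the p-value times 10) of Bio-Myc peaks (red, drawn upward) and Max peaks (blue, drawn downward) within 100 kb of the outermost TSS of Myc, Mga and Mnt; the x axis is the distance of the peak centre along the gene in kb and grey bars are the genes. The Max peak upstream of Mga, with a score of 2668, is the tallest of these loci, Mnt carries peaks of both lists at its start and inside the gene, and Myc itself carries none.

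The Mxd genes differed among themselves. Mxd3, which encodes a repressor expressed in proliferating cells, had peaks of both lists just upstream of its start. The gene (ENSMUSG00000021485.7) spans 55426529 to 55431119 of chromosome 13, minus strand. Its Bio-Myc peak (55431136 to 55431838) scored 226, ahead of 80.4% of its list, and its edge lay 17 bp upstream of the TSS. The Max peak (55431151 to 55432175) scored 221, ahead of 66.6% of its list, and lay 32 bp upstream. The Max to Bio-Myc score ratio was 0.98, lower than at most shared promoters, since 18.8% of them had a lower one. The CACGTG 251 bp upstream of the TSS lay under both peaks, and that 931 bp upstream lay under the Max peak only.

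Mxi1, a tumour suppressor of the same repressor family, had peaks of both lists at an internal start and none within 1 kb of its outermost TSS. It (ENSMUSG00000025025.7) spans 53384996 to 53450300 of chromosome 19, plus strand. At its annotated start at 53404936, Bio-Myc scored 88.0 (53403976 to 53405063) and Max scored 146 (53404049 to 53404944). Their centres were 23 bp apart. The Max peak reached only 8 bp past that start. Another annotated start, at 53403903, lay upstream of both peaks and within 1 kb of them, so the pair lay near both internal starts. Closer to the outermost TSS, in the first intron, a Bio-Myc peak scoring 119 began 3146 bp downstream of it and a Max peak scoring 191 began 2652 bp downstream, and these overlapped by 506 bp. None of the 4 peaks held a CACGTG. The pair at the internal start held 7 matches to CACGCG, a count reached by 0.207% of Bio-Myc and 0.172% of Max promoter peaks. These peaks were also rich in G and C, bases that CACGCG mostly consists of. Their GC content was 68.3% (Bio-Myc) and 68.9% (Max), beside medians of 59.8% and 61.0% over promoter peaks of the lists. Promoter peaks of like GC content were not compared. Matches were counted on both strands, and in CACGCGCGTG a match on each strand shares bases. The middle 200 bases of the shared part, in the intron upstream of that start, are shown with the 3 matches that they hold in capitals.
Mxi1, internal start, plus strand of mm9 (chr19:53404397-53404596): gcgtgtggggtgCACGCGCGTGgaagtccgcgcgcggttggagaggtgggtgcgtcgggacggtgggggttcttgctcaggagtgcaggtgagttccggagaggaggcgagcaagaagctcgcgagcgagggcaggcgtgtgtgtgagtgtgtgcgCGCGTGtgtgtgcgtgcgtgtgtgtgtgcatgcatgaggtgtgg

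Mxd4, a repressor associated with differentiation, had a Max peak without Bio-Myc. In this gene (ENSMUSG00000037235.7, chromosome 5, 34516536 to 34530369, minus strand) a Max peak (34530204 to 34531101) covered both TSSs. The score was 375, close to that of the Max gene, and the peak held 1 CACGTG 204 bp upstream of the TSS and 77 bp from the peak centre. The nearest Bio-Myc peak was 148 kb away. Over all protein-coding genes with a Max promoter peak, the median of the strongest score was 196, below that of Mxd4.

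Mxd1, which is induced as cells leave the cycle and differentiate, had no peak near it. The gene (ENSMUSG00000001156.7) spans 86597038 to 86619153 of chromosome 6, minus strand. Bio-Myc came no closer than 141 kb, on the downstream side, and Max no closer than 63.4 kb, at the TSS of Gmcl1 upstream. Over all protein-coding genes, the median distance to the nearest peak was 113 kb for Bio-Myc and 22.1 kb for Max. No CACGTG lay within 1 kb of the TSS of Mxd1.

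The Myc family genes had few and weak peaks. Myc (ENSMUSG00000022346.8) spans 61816946 to 61821929 of chromosome 15, plus strand, and no peak of either list overlapped it. The Bio-Myc clone carries a Myc cDNA whose fragments could map to the exons of this gene, and 0 Bio-Myc peaks overlapped any of its 12 annotated exons. The nearest Bio-Myc peak (score 89.7, 61841098 to 61841779) lay 19169 bp beyond the end of the gene between genes, without a Max peak or a CACGTG. The nearest Max peak lay 49.7 kb downstream of a Myc TSS, at the start of Pvt1, a long noncoding RNA gene next to Myc. There Max peaks scoring 252 and 82.0 overlapped a Bio-Myc peak scoring 672 (61868896 to 61871146), the 66th of its list. None of these held a CACGTG.

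Mycn (ENSMUSG00000037169.8, chromosome 12, 12942902 to 12948720, minus strand), which encodes the N-Myc protein of ESCs, had a peak of each list within 5 kb, at different places. The Bio-Myc peak (12949652 to 12950538) scored 84.5 and lay just inside the 1-kb window, 932 bp ahead of the outermost TSS. The Max peak (12943663 to 12944337) scored 82.4 and lay in a coding exon, 3085 bp downstream of a TSS. Both scores were near the limit of 80, the peaks did not overlap, and neither held a CACGTG.

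Mycl1 (ENSMUSG00000028654.7, chromosome 4, 122672895 to 122679728, plus strand), the gene of L-Myc, had a Max peak in an intron and no Bio-Myc peak. The Max peak (122674137 to 122674876) scored 117, began 795 bp downstream of a TSS and held 1 CACGTG, 81 bp from its centre. The nearest Bio-Myc peak, 16.9 kb downstream, lay at the start of the neighbouring gene Trit1 and overlapped a Max peak there.

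Ordered by the strongest Bio-Myc score within 1 kb, the members ran from Mnt (478) through Mxd3 (226), Max (171), Mga (101) and Mxi1 (88.0) to Mycn (84.5). The last 3 lay below the median of 143 of the 3275 protein-coding genes with such a peak. By the strongest Max score, the order was Mnt (1554), Mga (904), Max (384), Mxd4 (375), Mxd3 (221), Mxi1 (146) and Mycl1 (117). The median over these 7 members was 375, beside 196 over the 7788 protein-coding genes with a Max peak, and the Bio-Myc median was 136 over 6 members, beside 143. Without replicates, no spread is known by which neighbours in either order could be told apart.

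**Figure D3:**
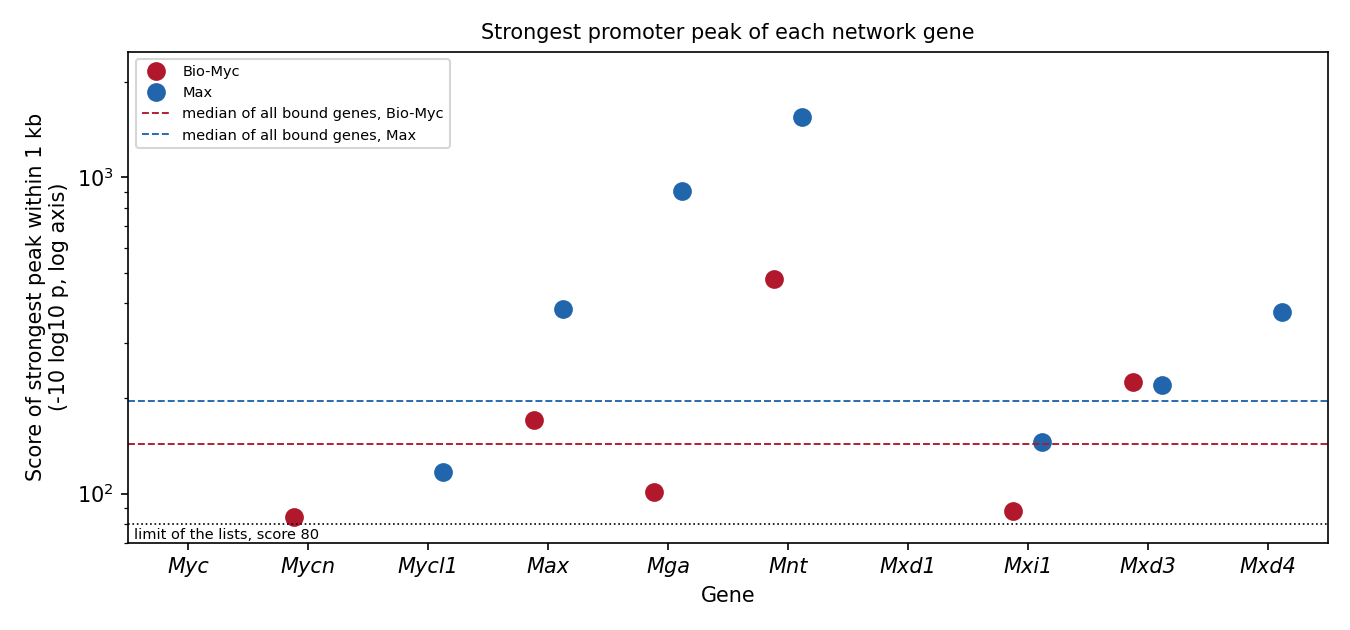
Score of the strongest Bio-Myc (red) and Max (blue) peak within 1 kb of any TSS of each network gene, on a log axis; the dotted line is the limit of 80 and dashed lines are the medians of all protein-coding genes with a peak. Mnt has the highest score in both lists, Mga, Max and Mxd4 lie well above the Max median, and the Bio-Myc scores of Mycn, Mxi1 and Mga lie below the Bio-Myc median.

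**Figure D4:**
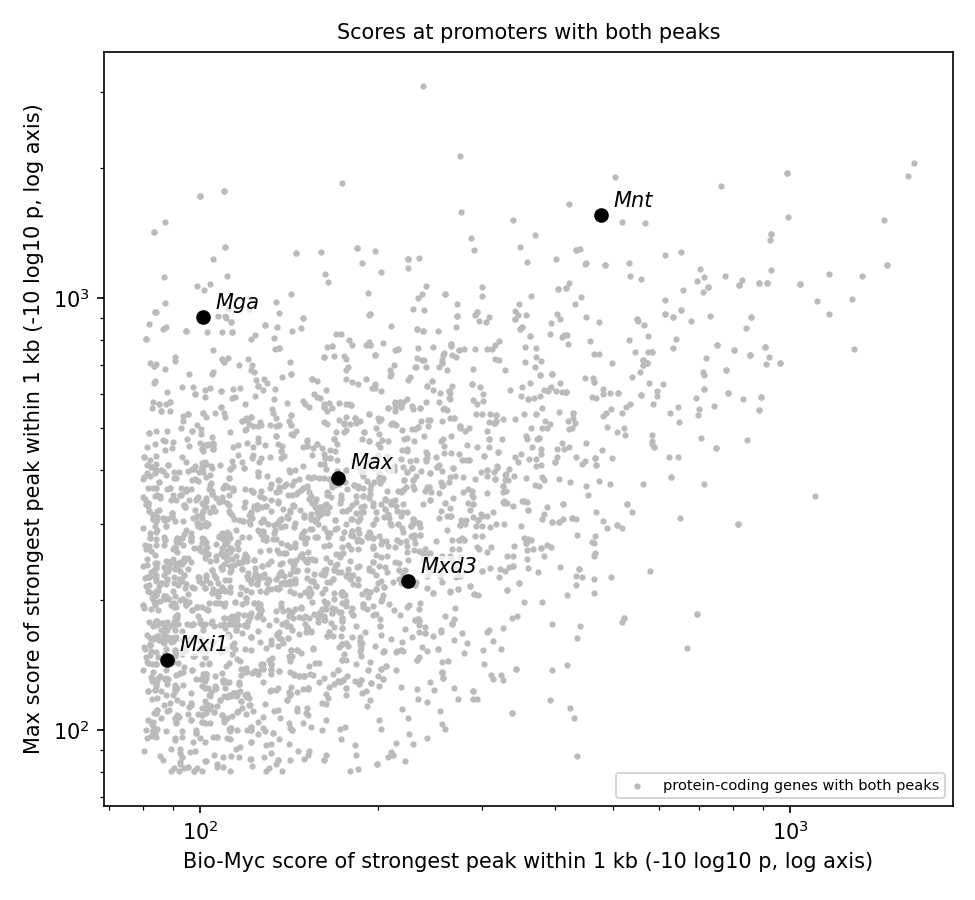
Strongest Bio-Myc score (x axis) and strongest Max score (y axis) within 1 kb of a TSS, both on log axes, for the 2832 protein-coding genes with both peaks (grey) and the 5 network genes among them (black). Mga lies at the upper left, with a Max score of 904 beside a Bio-Myc score of 101, and for Mnt the strongest peaks of the lists come from different sites of the gene.

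Site by site, the ratio varied within Mnt. Its wide Max peak scored 7.63 times the Bio-Myc peak over the outermost TSS and 18.4 times the weaker Bio-Myc peak in the first intron. The 7.63 was higher than the ratio of strongest scores at 98.2% of the genes with both peaks, beside 99.0% for Mga. A high Max score beside a low Bio-Myc score was thus also seen at the outermost TSS of Mnt. At the internal site of Mnt the Max score was 2.36 times that of Bio-Myc. At the Max gene this ratio was 2.24, and at the sites of Mxi1 it was 1.61 (in the first intron) and 1.66 (at the internal start). The median of 1.65 is of the strongest scores of each gene within 1 kb, not of single pairs of overlapping peaks.

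The genes of proteins that work with the network were looked up in the same way, in 5 lists of 46 genes. Partners of Mga and Max in the variant Polycomb complex had the most genes with both peaks, 7 of 10 beside 12.7% of protein-coding genes. These were L3mbtl2, Tfdp1, Pcgf6, Ring1, Cbx3, Rybp and Wdr5. Tfdp1, the dimer partner of E2F factors, had the highest scores of that list in both, with 654 for Bio-Myc and 1281 for Max. E2f6, which brings the complex to E2F sites, had a Max peak only, with a score of 964, and Rnf2 and Yaf2 had neither.

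Among 11 genes of the Sin3 corepressors that Mxd proteins and Mnt recruit, 3 had both peaks (Sin3a, Arid4a and Ncor1) and 5 a Max peak only, beside 12.7% and 22.1% of protein-coding genes. The highest Bio-Myc score was 201 at Arid4a and the highest Max score 1601 at Hdac2, a histone deacetylase gene without a Bio-Myc peak within 5 kb. Of 10 regulators of Myc stability and activity, 5 had both, beside the same 12.7%, among them Usp28, Usp36, Gsk3b and Aurka. The highest Max score was 809, at Usp36, which encodes a nucleolar deubiquitinase. Fbxw7, Skp2, Huwe1 and Zbtb17 had neither.

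The parallel branch of the network, in which Mlx takes the place of Max, had both peaks at Mlxip, with 222 for Bio-Myc and 473 for Max, a Max peak only at Mlxipl, and none at Mlx. Of 12 other factors that bind CACGTG, 0 had both peaks (12.7% of protein-coding genes), 4 a Max peak only (22.1%), 1 a Bio-Myc peak only (1.98%) and 7 neither (63.2%). A share of 4 in 12 with any Max peak is near the 34.8% of all protein-coding genes. The highest Max score was 302 at Bhlhe41, and the Bio-Myc peak, at Bhlhe40, scored 88.7. These lists are short and were chosen with earlier results of these data known. No difference between them, or from all protein-coding genes, was tested.

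**Figure D5:**
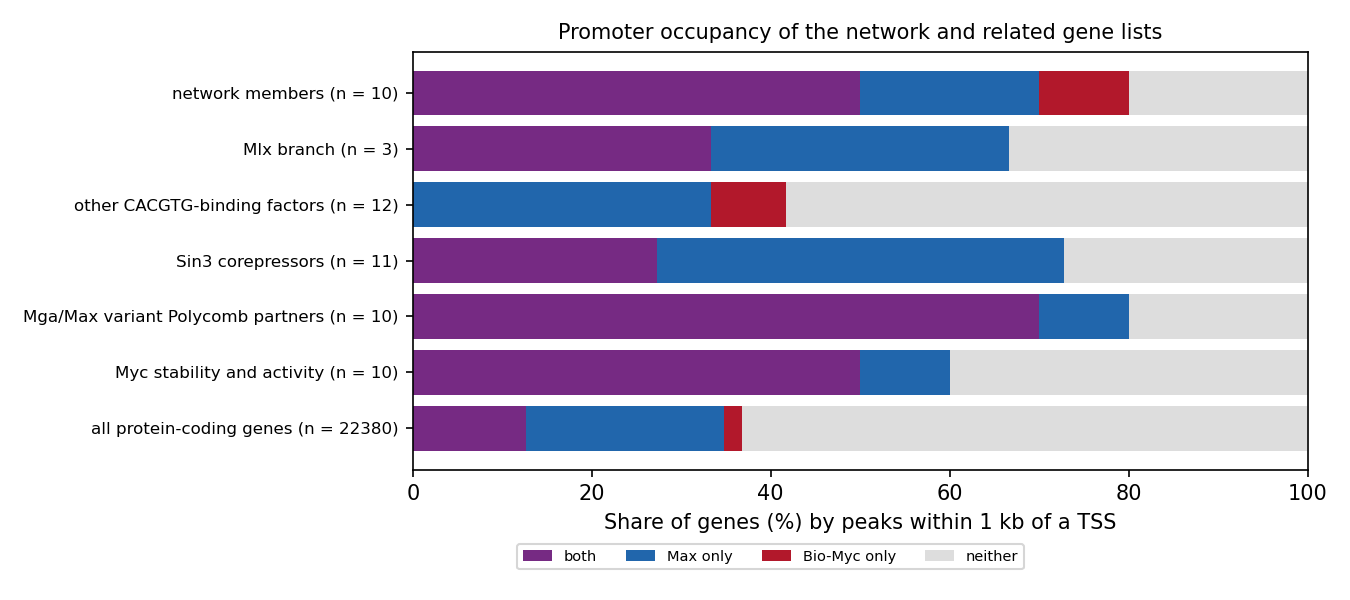
Share of genes (x axis, percent) with both peaks, a Max peak only, a Bio-Myc peak only or neither within 1 kb of a TSS, for the 10 network genes, 5 lists of related genes and all 22380 protein-coding genes (y axis). Both peaks were found at 5 of 10 network genes and 7 of 10 variant Polycomb partners, at 0 of 12 other CACGTG-binding factors and at 12.7% of all protein-coding genes.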

How the data were processed

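Per the study's methods, libraries were read on an Illumina HiScanSQ and aligned to mm9 with Bowtie 0.12.7, keeping uniquely mapped reads with at most 2 mismatches and 1 copy of each duplicate, and MACS 1.4.1 called peaks at a p-value of 1e-08 with the mock or IgG ChIP as control. The score that the authors deposited equals 10 times the negative log10 of that p-value. Unique mapping leaves out repeats, and the fixed limit makes the peak number depend on the unknown depth. Peaks were placed on the mm9 sequence and GENCODE M1 (Ensembl 65), which share the assembly, and 0 peaks ran past a chromosome end. All annotated TSSs were used. Hexamers were counted on both strands. Coordinates are 1-based. All members were named by rule; of the related lists, genes with both peaks and those with the highest scores were named, with others added after their values were seen. A gene of these lists is counted but not reported here by name. Members and lists were chosen with earlier results of these data known. Python 3.11.15, pysam 0.24.0, numpy 2.4.6, samtools 1.23.1 and matplotlib 3.10.9 were used, and 11 of 11 lookup and counting steps returned known answers on simulated data. Alternative windows, TSS sets, score limits, overlap rules and E-Box definitions were tried.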

Additional observations from a re-analysis of the deposited data

How the results depend on the processing

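Of 69 alternatives to the 5 member counts, 59 gave a count within 1.5 times that reported. The Bio-Myc count of 6 and the count of 5 with both peaks each fell to 3 with a peak score of at least 110, to 3 with at least 150 and to 2 with at least 200. The Bio-Myc scores of Mycn (counted only among the 6), Mxi1 and Mga are 84.5, 88.0 and 101, and that of the Max gene, lost at 200, is 171. The count of 3 members with CACGTG under a Bio-Myc promoter peak fell to 0 in the central 200 bp of the peaks and rose to 5 with CACGTG or CACGCG and to 6 with all 5 E-Box-like sequences. The count of 6 members with CACGTG under a Max promoter peak fell to 3 where the peak had to cover the TSS itself. For these changed counts, the share of all protein-coding genes at the same setting is not given. Whether the counts of other genes would change as much was therefore not tested. Any other window, TSS set, overlap rule or the cut of the Max list to its 3962 highest-scoring peaks stayed within that range. With 1 library per ChIP no library could be left out, and no peak below the limit of 80 is known. No paired analysis was possible because each ChIP has 1 sample.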

Other observations

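Several peaks near the network genes lay at the starts of their neighbours. Around Mnt, peaks of both lists covered the start of Mettl16, an RNA methyltransferase gene, with scores of 328 for Bio-Myc and 389.8 for Max. On the other side, 1 Bio-Myc peak of 2606 bp with a score of 572 spanned the region of the Sgsm2 and Tsr1 starts, where Max had 2 peaks with scores of 200.4 and 709. Tsr1 is a ribosome assembly gene. At Trit1, the tRNA modifying gene next to Mycl1, a Bio-Myc peak scoring 231 and a Max peak scoring 262 overlapped by 1032 bp. Downstream of Mxd3, a Max peak with a score of 218 lay at the starts of Prelid1 and Rab24, without a Bio-Myc peak.

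Of the E-Boxes at member promoters, 2 did not lie under a peak of either list. Both were in introns of Mxi1, 814 bp upstream of its start at 53403903 and 379 bp downstream of its start at 53404936.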
